A study of Homo sapiens with 18 samples.

Results

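HCT116, an established human colorectal carcinoma line, was compared after transfection with an hnRNPK expression construct (Antisense_hnRNPK) and with its negative control (Antisense_NC), both in cells that stably carried the antisense sequence of the long noncoding RNA CRLM1. There were 3 biological replicates in each group, so 6 of the 18 RNA-seq libraries of the series entered the comparison. All genes of the count table that passed a filter on low counts were members, which kept 14501 of 31004 genes. The antisense cells served the study as a second control beside an empty vector (Ctrl), and the Ctrl_NC and Ctrl_hnRNPK groups, with 3 libraries each, are used below for a test of the difference between backgrounds. The antisense sequence was introduced by lentivirus with puromycin selection, and whether the cells were 1 clone is not given in the sources used here. The cDNA of HNRNPK was cloned into a plasmid and transfected. Transfection reaches only part of a culture, and the share of cells that took up the construct was not measured here.

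hnRNPK is a nucleic acid binding protein of the poly(C)-binding family, which also holds PCBP1 to PCBP4. Its KH domains recognise runs of cytosine in single-stranded RNA and DNA. It shuttles between the nucleus and the cytoplasm and is known to take part in transcription, splicing, mRNA stability and translation, and in cancer cells it has been tied both to growth-promoting and to p53-dependent programmes.

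Total counts were between 19732681 and 24457199 per library, and between 19560 and 22047 genes had at least 1 count. Levels are given as CPM, the count scaled to a common library size with TMM, and are not divided by gene length. A gene passed the test when its adjusted p, taken from edgeR's quasi-likelihood F-test and corrected over all 14501 genes by the Benjamini-Hochberg method, was at most 0.05, and "rose" or "fell" is used of such genes. A gene was called when it also differed at least 2-fold. Differences are Antisense_hnRNPK minus Antisense_NC on the log2 scale. The replicates were not repeats of 1 library: pairwise chi-square statistics per degree of freedom ran from 3.12 to 5.11 among the Antisense_NC libraries and from 14.1 to 36.7 among the Antisense_hnRNPK libraries, so the treated replicates differed from each other far more. Antisense_hnRNPK replicate 2 was the one farthest from the others in many of the genes described here.

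The targeted gene was measured first. HNRNPK (ENSG00000165119.18, chr9:83968083-83980631 on the minus strand, GRCh38) stood at 432, 434 and 424 CPM in Antisense_NC and at 540.1, 532 and 583 CPM in Antisense_hnRNPK. The groups did not overlap, and all 3 treated libraries were higher. The difference was 0.35 (SE 0.07, edgeR adjusted p = 0.000839). Reads of the construct and of the endogenous gene were counted together. With the trend on GC content removed (below) the difference was -0.19 (edgeR adjusted p = 0.0502), which turned its direction and did not pass. At LINC01767 (RP4-710M16.2 in the table), the gene of CRLM1, the levels were 50, 49.5 and 50 CPM in Antisense_NC and 42.5, 45.2 and 39.1 CPM in Antisense_hnRNPK, a difference of -0.24 (SE 0.09, edgeR adjusted p = 0.0235). It passed the test without being called, and the pass was not stable. The edgeR adjusted p was 0.162 in a fit of all 18 libraries and 0.0507 without Antisense_hnRNPK replicate 1. Without Antisense_NC replicates 1, 2 and 3 the edgeR adjusted p was 0.0678, 0.0532 and 0.0589. Whether reads were counted by strand is not given in the sources used here, so sense RNA and the antisense insert cannot be told apart there. The labelled cell type was checked by markers. Of 8 colorectal epithelial markers, 7 were above 1 CPM and none was at 0 in all 6 libraries, with a sum of 5926 to 6242 CPM in Antisense_NC and 3727 to 3898 CPM in Antisense_hnRNPK. KRT8, KRT18, KRT19 and CLDN4 fell, at -0.87, -0.87, -0.51 and -1.27, while EPCAM, an adhesion protein of epithelia, went from 254, 268 and 252 to 316, 289.8 and 362 CPM. The 8 fibroblast markers summed to at most 32.9 CPM, nearly all from COL1A1, with 5 at 0 in all 6 libraries, and went from 29.3 to 32.9 CPM in Antisense_NC to 11.5 to 15.5 CPM in Antisense_hnRNPK. The 6 leukocyte markers in the table summed to 2.32 to 2.61 CPM and 2.16 to 2.24 CPM, and the 6 endothelial markers, 3 of them at 0, to at most 0.302 CPM. In bulk RNA, fewer cells that express a gene and less RNA per cell cannot be told apart.

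The comparison asks what the hnRNPK construct did to the transcriptome of cells that carried the antisense sequence in place of CRLM1. Of the 14501 genes tested, 4850 (33.4%) rose and 4418 (30.5%) fell. The called genes were 1056 higher (7.28%) and 885 lower (6.1%), of which 1898 of 1941 did not overlap between the groups, beside 9925 (68.4%) of all genes. The median log2 fold change of all genes was 0.04. Without Antisense_hnRNPK replicate 2, 701 genes were called higher and 889 lower. On the deposited FPKM values, tested with limma, the split was 1728 higher and 258 lower at a pseudocount of 0.1 and 495 and 140 at a pseudocount of 1. Each list of genes below has to be read against these shares, since most of the genes tested passed.

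The first thing the fold changes followed was base composition. GC content is the share of guanine and cytosine in a gene's exons, and it was computed for 14337 of the 14501 genes. Across these genes, which are not independent replicates, Spearman's correlation of the log2 fold change with GC was -0.72. Genes were put into 10 bins of equal number by GC. In bin 1, with the lowest GC (27.9% to 38.7%), the median was 0.71, with 306 genes called higher and 4 lower. In bin 10, with the highest GC (from 61.6%), it was -0.69, with 8 called higher and 329 lower. The medians fell at every step between, and crossed 0 between bins 5 and 6. With exonic length the correlation was 0.19, and within the bins it ran from -0.17 to 0.08.

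Every treated library carried the trend. Against the mean of the Antisense_NC libraries, Spearman's correlation of a library's deviation with GC over 12687 genes was -0.75, -0.66 and -0.82 for Antisense_hnRNPK replicates 1, 2 and 3. For the Antisense_NC libraries, each set against the other two, it was -0.07, -0.26 and 0.30. The mean GC content of the counted reads' genes was 51.7%, 51.6% and 51.8% in Antisense_NC and 49.2%, 49.3% and 49.0% in Antisense_hnRNPK. The groups did not overlap, and 49.2% ± 0.138 against 51.7% ± 0.141 (SD, n = 3) gave p = 0.1 in a two-sided exact permutation test, the smallest that 3 against 3 allows. Each control was set against the other controls, so their deviations cancel across the controls and a common sign among them could hardly arise. The trend was strong in all 3 treated libraries and weak in the controls, so it cannot be told apart from the construct here. The differences are therefore given as deposited and, beside them, after a smooth curve on GC was taken out of each library ("GC trend removed"). That correction also takes out any true difference that follows GC.

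**Figure D1:**
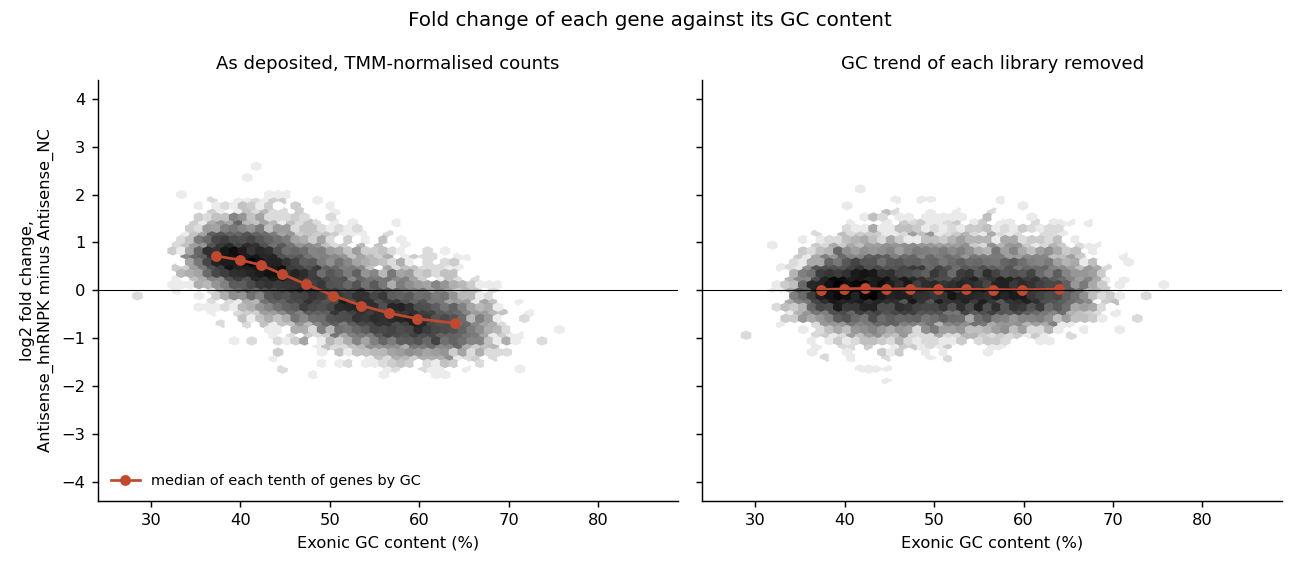
Each grey hexagon holds genes by exonic GC content in percent (x axis) and log2 fold change of Antisense_hnRNPK minus Antisense_NC (y axis), darker for more genes on a log scale, and red points are medians of 10 equal groups of genes by GC. On the left the medians fall from 0.71 to -0.69, and on the right, with the trend of each library removed, they stay near 0.

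The genes at both ends of the fold changes show this contrast in sequence. Of the called protein-coding genes whose mean reached 5 CPM, FASN, fatty acid synthase, had the lowest fold change and a GC content of 65.2%, and SLC7A11, the cystine transporter, the highest and 35.4%. A stretch from the coding exon in the middle of each coding sequence is printed, 5′ to 3′ on the coding strand (GRCh38), the FASN one from chr17:82085772-82085871, minus strand with 70 G or C in 100 bases, the SLC7A11 one from chr4:138214585-138214629, minus strand with 15 in 45.
FASN: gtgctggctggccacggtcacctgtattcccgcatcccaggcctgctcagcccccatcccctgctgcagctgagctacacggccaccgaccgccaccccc
SLC7A11: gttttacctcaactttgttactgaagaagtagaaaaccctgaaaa

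With the GC trend removed, 2766 genes were higher (19.1%) and 2821 lower (19.5%) at the same adjusted p, and 456 (3.14%) and 214 (1.48%) were called. Both fits called 406 genes in the same direction, 270 higher and 136 lower, while 382 genes passed in both with opposite signs. The share of called genes that were higher went from 54.4% to 68.1%. For each list below, counts are given as deposited and with the trend removed.

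Most genes of cholesterol synthesis fell, and they did so with and without the GC correction. Of the 28 genes of cholesterol synthesis and its control by SREBP2 that were tested, 1 rose, 16 fell and 11 did not pass the test, and 10 were called lower. The median was -0.61, against 0.04 for all genes. After the GC trend was removed, 1 was higher, 20 were lower and 7 did not pass, and the median was -0.79. DHCR7, the last enzyme of the pathway, measured 511, 532 and 509 CPM in Antisense_NC and 188, 95.1 and 184 CPM in Antisense_hnRNPK. The control replicates lay close to each other, all treated replicates were far below, and replicate 2 was the lowest. The difference was -1.74 (SE 0.22, edgeR adjusted p = 0.000166), and -1.26 (edgeR adjusted p = 0.00297) with the GC trend removed. MVK, mevalonate kinase, went from 56.5, 56.4 and 63.7 to 25.8, 13.8 and 24.5 CPM (-1.48 and -1.01 after correction).

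Genes that control the pathway fell as well. INSIG1, the sterol-dependent retention factor of SREBP, differed by -1.15 (SE 0.32, edgeR adjusted p = 0.013), and by -1.48 after correction. SREBF2, the gene of the transcription factor SREBP2 itself, measured 902, 924 and 917 and 460.1, 351 and 450.1 CPM (-1.13, -0.61 with the GC trend removed). HMGCS1, the synthase early in the pathway, had another pattern. It measured 168, 174 and 163 CPM in Antisense_NC and 178, 80.5 and 190.3 CPM in Antisense_hnRNPK. Replicates 1 and 3 were above every control library and replicate 2 was below them all, so the mean difference was -0.18 (SE 0.27, edgeR adjusted p = 0.577). Its GC content is 40.3%, and with the GC trend removed the difference was -0.79 (edgeR adjusted p = 0.0408).

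Fatty acid synthesis was split as deposited. Of 28 genes tested, 9 rose, 11 fell and 8 did not pass the test, and 7 were called lower and none higher, at a median of -0.24. With the GC trend removed, 4 were higher, 13 were lower and 11 did not pass, with 0 called higher and 2 lower and a median of -0.21. FASN (ENSG00000169710.6, chr17:82078338-82098294) measured 2192, 2192 and 2168 CPM in Antisense_NC and 553, 246 and 567 CPM in Antisense_hnRNPK. It held 0.215% to 0.22% of all counts in the control libraries and 0.031% to 0.0647% in the treated ones. The groups did not overlap, and the difference was -2.27 (SE 0.28, edgeR adjusted p = 0.000182), with -1.53 (edgeR adjusted p = 0.00319) after GC correction. ACLY, which supplies acetyl-CoA, fell by 1.14 (-0.89 after correction) and SCD, the stearoyl-CoA desaturase, fell by 1.097. SCD is not GC-rich (46.5%), and its difference was -1.26 with the GC trend removed. SREBF1, the regulator of this branch, measured 426, 412 and 419 and 191, 189 and 226 CPM (-1.06), but only -0.40 (edgeR adjusted p = 0.00364) with the GC trend removed. FADS1, a fatty acid desaturase, went the other way, from 69.4, 67.1 and 62.5 to 95, 86.8 and 85.1 CPM, a difference of 0.42 (SE 0.08, edgeR adjusted p = 0.000424). The elongases ELOVL6 (0.57) and ELOVL7 (0.62) and the acyl-CoA synthetase ACSL5 (0.68) also rose. Once the GC trend was taken out, FADS1 was at 0.73 and ACSL5 at 0.46, while ELOVL6 and ELOVL7 were at 0.07 and -0.08.

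**Figure D2:**
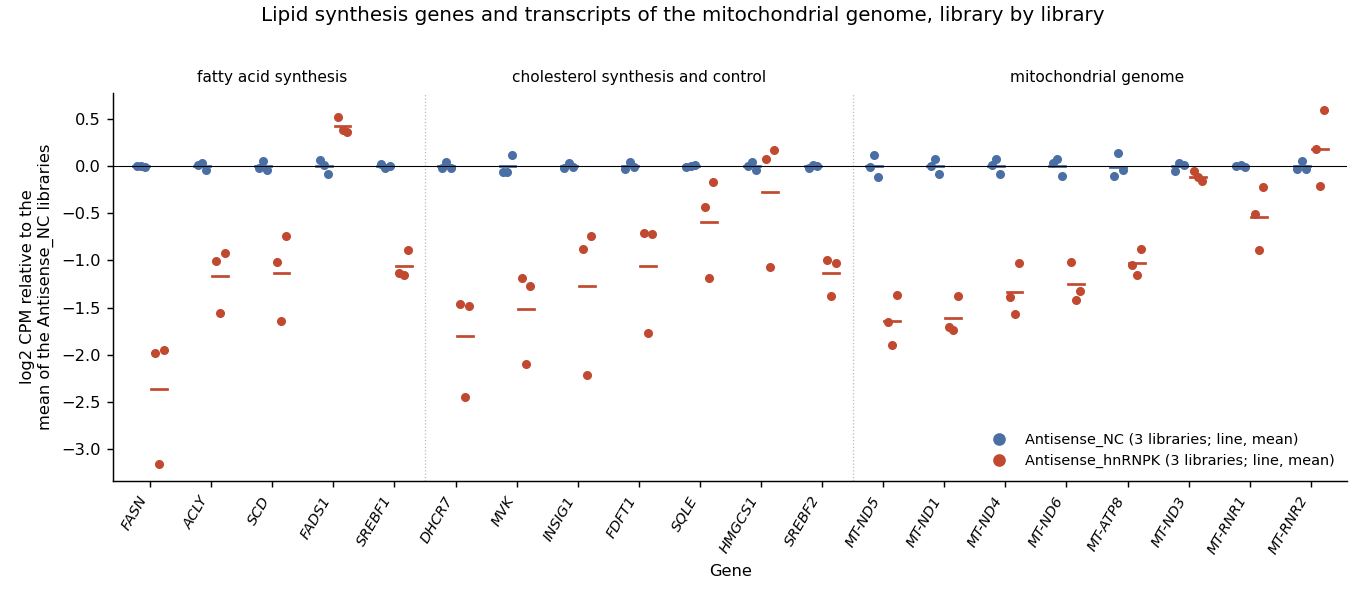
Points are single libraries, as log2 CPM relative to the mean of the 3 Antisense_NC libraries (y axis), for lipid genes and mitochondrial transcripts (x axis), with lines at the mean. Antisense_hnRNPK replicate 2 is the lowest point for FASN and for the cholesterol genes shown. The other Antisense_hnRNPK points of HMGCS1 lie above 0, and MT-ND3 and MT-RNR2 lie apart from the other mitochondrial transcripts.

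The promoters of the cholesterol list were searched for the CCAAT box, which NF-Y binds, on both strands, because NF-Y is a known partner of SREBP. The windows are RefSeq promoters of 300 bases (GRCh38.p14), from 250 before to 50 after the gene start, and 21 genes of the list had one. CCAAT was in 16 of 21 (76.2%), against 3618 of 9874 (36.6%) for all tested protein-coding genes with a promoter. The same box was in 10 of 24 (41.7%) promoters of the fatty acid list, SCD among them. TCACNCCAC, a sterol response element, was in 1 of 21 (4.76%) and in 1.1% of all. A match is a string and was not tested for binding. The pieces around the match are shown for 4 genes that fell, DHCR7 (-1.74), MVD (-1.27), INSIG1 (-1.15) of the cholesterol list and SCD of the fatty acid list, with CCAAT or its reverse complement in capitals, in the direction of the gene, from chr11:71448473-71448497, minus strand, chr16:88663162-88663186, minus strand, chr7:155297698-155297722, plus strand and chr10:100346994-100347018, plus strand.
DHCR7: ggctcctcgaCCAATcacggggcgc
MVD: ctcgcacgggCCAATcctgtggtag
INSIG1: ccggcctcccATTGGttgcggccgc
SCD: ttgcgccgagCCAATggcaacggca

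Messenger RNAs of the mitochondrial genome fell together. This genome encodes 13 subunits of the respiratory chain and the ATP synthase, 2 ribosomal RNAs and the tRNAs, and it is transcribed as long precursors that are cut into single RNAs. Of the 13 mRNAs, 0 rose, 12 fell and 9 were called lower, with a median of -1.16. Their GC content was 39.6% to 47.7%, at the side of the GC scale where most genes rose, and with the GC trend removed all 13 were lower, 12 of them called, at a median of -1.58. MT-ND5, a subunit of complex I (ENSG00000198786.2, chrM:12337-14148), measured 8187, 8928 and 7580 CPM in Antisense_NC and 2623, 2215 and 3184 CPM in Antisense_hnRNPK. The groups were far apart, and the difference was -1.63 (SE 0.12, edgeR adjusted p = 1.43e-07), with -1.92 (edgeR adjusted p = 5.44e-07) after GC correction. MT-ND1, another subunit of that complex, differed by -1.60 (SE 0.10, edgeR adjusted p = 9.06e-08). MT-ND6, the only mRNA encoded on the other strand, went from 390.3, 402 and 355 to 188, 143 and 153 CPM (-1.25). The cytochrome oxidase mRNAs MT-CO2 (-0.90) and MT-CO3 (-0.91) fell less. MT-ND3 did not pass as deposited, with 818, 869 and 857 CPM against 819, 781 and 758 CPM (-0.11).

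The ribosomal RNAs of the same genome fell less than the median mRNA or did not pass. MT-RNR2, the large ribosomal RNA, measured 27369, 28970 and 27372 CPM in Antisense_NC and 31623, 24027 and 42047 CPM in Antisense_hnRNPK. Replicate 2 was below the controls and replicates 1 and 3 above them, and the difference was 0.21 (SE 0.15, edgeR adjusted p = 0.239). MT-RNR1, the small one, fell by 0.52 (edgeR adjusted p = 0.00205). With the GC trend removed MT-RNR1 was at -0.77 (edgeR adjusted p = 0.000418), slightly lower than the mRNA MT-ND3 at -0.72. MT-RNR2 was then at -0.25 (edgeR adjusted p = 0.219), which turned its direction and did not pass. As shares of all counts, mitochondrial mRNA took 3.81%, 3.98% and 3.58% in the Antisense_NC libraries and 1.89%, 1.85% and 2.06% in Antisense_hnRNPK, whereas mitochondrial rRNA took 3.09%, 3.19% and 3.05% and then 3.98%, 3.27% and 4.93%. Neither share overlapped between the groups, and both gave p = 0.1 in the exact permutation test. These shares are of raw counts, without the TMM scaling of the CPM values above. On the CPM scale neither rRNA rose, and MT-RNR2 overlapped between the groups. Of 11 mitochondrial tRNAs tested, 0 rose and 6 fell (9 were lower after correction), among them MT-TL1, the leucine tRNA that lies between the rRNA genes and MT-ND1, from 19.1, 19.8 and 17.2 to 6.21, 5.09 and 7.83 CPM. The nuclear-encoded respiratory chain was not shifted in the same way: of 75 genes tested, 24 rose, 22 fell and 29 did not pass, at a median of -0.06. After correction, 16 were higher, 27 were lower and 32 did not pass, with 0 called higher and 0 lower and a median of -0.10.

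Many genes of amino acid supply rose. ATF4 is a transcription factor whose translation increases when amino acids are short or the endoplasmic reticulum is stressed, and its targets import and make amino acids and charge tRNAs. Of 28 genes of this response tested, 14 rose, 6 fell and 8 did not pass the test, with 4 called higher, and the median was 0.30. This list is GC-rich (median 53.1%), and with the GC trend removed, 23 were higher, 2 were lower and 3 did not pass, at a median of 0.59. SLC7A11 (ENSG00000151012.13, chr4:138164097-138242349) measured 46.3, 49.7 and 42 CPM in Antisense_NC and 191, 273 and 168 CPM in Antisense_hnRNPK. All 3 treated libraries were well above the highest control, and the difference was 2.19 (SE 0.17, edgeR adjusted p = 1.58e-06), with 1.46 (edgeR adjusted p = 0.00024) after GC correction. ASNS, asparagine synthetase, measured 204, 208 and 208 CPM and 598, 846 and 493 CPM, a difference of 1.64 (SE 0.17, edgeR adjusted p = 1.22e-05), with 1.22 after correction. MTHFD2, of mitochondrial one-carbon metabolism, differed by 1.20 (SE 0.09, edgeR adjusted p = 1.58e-07). CEBPG, a partner of ATF4, differed by 1.15 (SE 0.08, edgeR adjusted p = 1.17e-07), and DDIT3, the stress factor CHOP, by 0.73 (SE 0.09, edgeR adjusted p = 1.16e-05). After correction these 3 were at 0.78, 0.63 and 0.73.

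ATF4 itself measured 378, 403 and 395 CPM in Antisense_NC and 427, 478 and 421 CPM in Antisense_hnRNPK, a difference of 0.17 (SE 0.08, edgeR adjusted p = 0.0919) that did not pass. TRIB3 and CHAC1, both known targets, had differences of 0.33 and 0.15 that did not pass either, and the groups overlapped. All 3 have GC contents of 57.5% to 62.7%. After GC correction, the differences were 0.70 (edgeR adjusted p = 4.6e-05) for ATF4, 0.94 (edgeR adjusted p = 0.000199) for TRIB3 and 0.83 (edgeR adjusted p = 1.02e-05) for CHAC1. The amino acid transporters SLC38A1 and SLC1A4 and the selenophosphate synthetase SEPHS2, named by the rule on size, went from 80.2, 88.8 and 74.9 to 211, 260.3 and 192 CPM, from 6.2, 4.47 and 5.94 to 13.8, 24.3 and 7.99 CPM and from 16.6, 16.3 and 17.7 to 45.1, 59.2 and 31.6 CPM. For SLC1A4 and SEPHS2 replicate 3 moved least and replicate 2 most.

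The cytosolic aminoacyl-tRNA synthetases, which load amino acids onto tRNAs, rose in most cases. Of 20 tested, 16 rose, 3 fell and 1 did not pass the test, with 6 called higher and a median of 0.74. In the fit without the GC trend, 13 were higher, 2 were lower and 5 did not pass, and the median was 0.55. LARS, for leucine, measured 84.9, 91.2 and 78.4 CPM in Antisense_NC and 202, 235 and 214 CPM in Antisense_hnRNPK, and NARS, for asparagine, 89.4, 91.1 and 96.5 and 214, 255 and 225 CPM. The groups did not overlap, and the differences were 1.35 (SE 0.09, edgeR adjusted p = 9.56e-08) and 1.32 (SE 0.09, edgeR adjusted p = 9.8e-08), with 0.72 and 0.83 after correction. CARS, for cysteine, had a larger difference after GC correction, from 0.77 to 1.12. VARS, QARS and FARSA, at -0.81, -0.76 and -0.64, were the 3 that fell. VARS and FARSA no longer passed with the GC trend removed, at -0.14 and 0.01, while QARS did, at -0.33.

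A composite element of C/EBP and ATF factors, searched as TGATGNAA on both strands, is shared by several of these promoters. It was found in 6 of 16 synthetase promoters (37.5%) and 3 of 22 promoters of the ATF4 list (13.6%), against 163 of 9874 (1.65%) for all tested protein-coding genes with a promoter. The pieces around each of the 9 matches are shown because they are the letters these genes share, with the element or its reverse complement in capitals, in the direction of the gene (RefSeq, GRCh38.p14). They lie at chr16:70289676-70289703, minus strand (AARS1), chr11:3057408-3057435, minus strand (CARS1), chr9:92293693-92293720, minus strand (IARS1), chr12:57488054-57488081, plus strand (MARS1), chr18:57621805-57621832, minus strand (NARS1), chr5:33440957-33440984, plus strand (TARS1), chr7:97872459-97872486, minus strand (ASNS), chr15:40953252-40953279, plus strand (CHAC1) and chr11:62881726-62881748, plus strand (SLC3A2). The log2 fold changes of these genes, in the same order, were 0.23, 0.77, 1.03, 0.67, 1.32, 1.17, 1.64, 0.15 and 0.32. LARS, which rose most, had no match in its window.
AARS1: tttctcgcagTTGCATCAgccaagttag
CARS1: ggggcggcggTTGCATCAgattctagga
IARS1: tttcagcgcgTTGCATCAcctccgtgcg
MARS1: ccggttccggTTGCATCAgcgagggatt
NARS1: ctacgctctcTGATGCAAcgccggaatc
TARS1: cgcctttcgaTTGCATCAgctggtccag
ASNS: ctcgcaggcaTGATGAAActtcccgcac
CHAC1: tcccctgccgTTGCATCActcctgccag
SLC3A2: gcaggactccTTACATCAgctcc

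**Figure D3:**
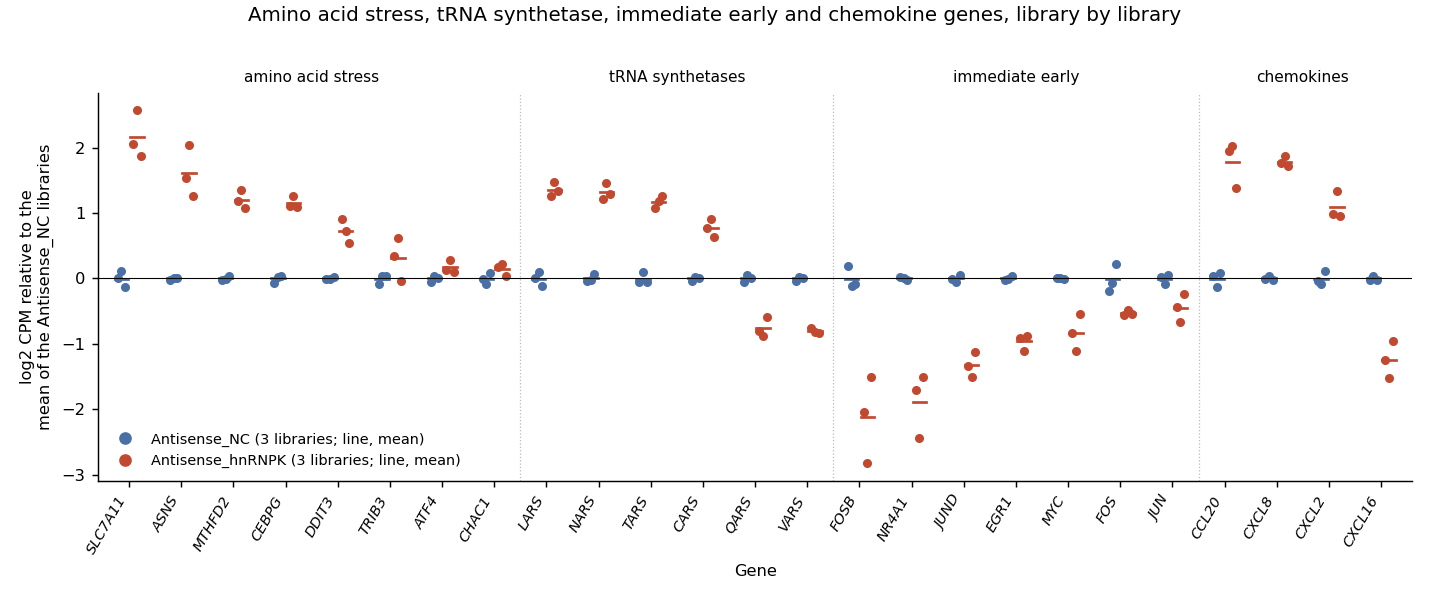
Points are single libraries, as log2 CPM relative to the mean of the 3 Antisense_NC libraries (y axis), for 4 groups of genes (x axis), with lines at the mean. SLC7A11, ASNS, LARS, NARS, CCL20 and CXCL8 lie above 1, QARS, VARS, CXCL16 and the immediate early genes shown lie below 0, and ATF4 and CHAC1 lie near 0.

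Immediate early genes, transcription factors that cells switch on within minutes of a growth or stress signal, fell almost without exception. Of 23 tested, 0 rose, 22 fell and 1 did not pass the test, 7 were called lower, and the median was -0.76. The list is GC-rich (median 55.3%). With GC corrected for, 1 was higher, 12 were lower and 10 did not pass, and the median was -0.32. FOSB measured 45.4, 36.7 and 37.6 CPM in Antisense_NC and 9.74, 5.64 and 14.1 CPM in Antisense_hnRNPK, and the orphan nuclear receptor NR4A1 136, 134 and 131 and 40.8, 24.5 and 46.8 CPM. Both were below every control in all 3 treated libraries, lowest in replicate 2, and differed by -2.04 (SE 0.25, edgeR adjusted p = 8.01e-05) and -1.85 (SE 0.18, edgeR adjusted p = 1.15e-05). With the GC trend removed they differed by -1.54 (edgeR adjusted p = 0.00276) and -1.22 (edgeR adjusted p = 0.00139). NR4A2, which is not GC-rich (49.1%), hardly moved on correction, from -1.06 to -1.02. JUND (69.9% GC) went from -1.32 to -0.48, EGR1 from -0.96 to -0.53 and JUN from -0.44 to -0.02. FOS measured 12.4, 13.5 and 16.5 CPM against 9.59, 10.1 and 9.66 CPM (-0.53) and did not pass after correction. MYC, the growth factor-responsive oncogene, went from 466, 467 and 464 to 261, 216 and 320 CPM, a difference of -0.82 (SE 0.11, edgeR adjusted p = 1.45e-05), with -0.60 after correction.

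Neighbouring programmes fell in part. Of 20 feedback genes and ETS targets of ERK signalling, 3 rose, 11 fell and 6 did not pass the test, with 4 called lower, at a median of -0.30. After correction, 1 was higher, 9 were lower and 10 did not pass, with 0 called higher and 1 lower and a median of -0.24. PHLDA2, an imprinted growth restrictor, went from 1232, 1192 and 1355 to 393, 272 and 433 CPM (-1.79 and -1.10 after correction), and ETV4, an ETS factor, from 40, 41.1 and 39.2 to 20.8, 15.7 and 18 CPM (-1.15 and -0.53 after correction). DUSP6, the ERK phosphatase, rose instead, from 174, 178 and 172 to 253, 292 and 259 CPM, a difference of 0.61 (SE 0.08, edgeR adjusted p = 1.54e-05), with 0.49 after correction. Of 12 mesenchymal factors and markers, 0 rose, 9 fell and 3 did not pass the test, with 4 called lower, at a median of -0.86. After correction, 0 were higher, 5 were lower and 7 did not pass, with 0 called higher and 1 lower and a median of -0.46. SNAI1, a repressor of E-cadherin, differed by -1.51 (SE 0.19, edgeR adjusted p = 9.81e-06), with -0.94 after correction, and FN1, fibronectin, by -0.82 (SE 0.12, edgeR adjusted p = 3.8e-05). FN1 has 44.4% GC and was at -1.15 with the GC trend removed. VIM and ZEB1, at 0.35 and 0.50, did not pass. Of 30 epithelial junction and keratin genes, 8 rose, 15 fell and 7 did not pass the test, at a median of -0.26. After correction, 5 were higher, 9 were lower and 16 did not pass, with 0 called higher and 0 lower and a median of -0.10. JUP, plakoglobin, went from 1052, 1024 and 1047 to 401, 377 and 435 CPM (-1.37 and -0.72 after correction). CYR61, a matrix protein gene driven by YAP and serum factors, was one of the genes that fell most after correction, from 106, 113 and 114 to 38.5, 24.1 and 45.4 CPM (-1.64 and -1.65). CXCR4, the receptor of CXCL12, fell from 10.3, 10.1 and 9.78 to 2.96, 1.46 and 4.68 CPM (-1.76 and -1.73).

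Several secreted inflammatory signals rose, and as deposited members of the NF-kappaB system fell. Of 19 genes tested, 8 rose, 9 fell and 2 did not pass the test, with 4 called higher and 1 lower, at a median of -0.14. After correction, 6 were higher, 3 were lower and 10 did not pass, with 2 called higher and 0 lower and a median of 0.13, so the median changed sign. CXCL8, interleukin 8 (ENSG00000169429.10, chr4:73740519-73743716), measured 124, 127 and 122 CPM in Antisense_NC and 423, 453 and 408 CPM in Antisense_hnRNPK. The replicates were close within each group, and the difference was 1.78 (SE 0.08, edgeR adjusted p = 3.34e-08), with 0.98 (edgeR adjusted p = 1.02e-05) after correction for its low GC content of 31.6%. CCL20 differed by 1.81 (SE 0.17, edgeR adjusted p = 8.19e-07), and by 1.08 after correction. CXCL2 differed by 1.102 (SE 0.13, edgeR adjusted p = 7.03e-06) and kept that size after correction (1.11). CXCL16, a transmembrane ligand, went down, from 347, 359.6 and 347 to 148, 122 and 181 CPM (-1.23 and -0.71 after correction). NFKBIA, which holds NF-kappaB in the cytoplasm, went from 387, 391 and 400.3 to 239, 212 and 307 CPM (-0.65). NFKBIE (-0.62), NFKB2 (-0.52) and RELB (-0.47) also fell. With the GC trend removed NFKBIA was at -0.30 (edgeR adjusted p = 0.053) and did not pass. NFKBIE, NFKB2 and RELB were then at 0.03, 0.14 and 0.23, so their fall was not seen after correction.

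Interferon-stimulated genes divided by family. Of 25 tested, 9 rose, 10 fell and 6 did not pass the test, with 6 called higher and 4 lower, at a median of -0.21. After correction, 9 were higher, 7 were lower and 9 did not pass, with 4 called higher and 0 lower and a median of -0.08, so no gene was called lower. All 4 IFIT genes tested, which bind foreign RNA, rose, by 1.48 to 1.73, and all 3 IFITM genes, which block viral entry at membranes, fell, at -1.06 to -1.45. The IFIT genes have 38.8% to 43.4% GC and the IFITM genes 57.6% to 58.1%. IFIT1 was low, at 0.948, 1.77 and 1.48 CPM against 3.45, 4.7 and 5.84 CPM. IFITM3 was abundant, at 572, 577 and 575 CPM against 221, 175 and 277 CPM. With the GC trend removed all 4 IFIT genes were higher, by 0.83 to 1.23, and all 3 IFITM genes lower, at -0.50 to -0.89, less than 2-fold. SLFN5 and SAMD9, also interferon-responsive, were among the 12 protein-coding genes that rose most, from 42.7, 42.6 and 40.4 to 114, 192 and 119 CPM and from 2.41, 3.04 and 1.23 to 7.12, 10.8 and 5.42 CPM, and were at 1.12 and 1.08 after correction. Of 19 matrix proteases and plasminogen activation genes, 6 rose, 8 fell and 5 did not pass the test, with 1 called higher and 3 lower, at a median of -0.12. After correction, 2 were higher, 8 were lower and 9 did not pass, with 1 called higher and 0 lower and a median of -0.13. MMP1, an interstitial collagenase, rose from 0.345, 0.633 and 0.665 to 2.61, 6.16 and 2.03 CPM, a difference of 2.73 (SE 0.46, edgeR adjusted p = 0.000173), with 2.30 after correction. It was highest in replicate 2. MMP15 (-1.17), TIMP1 (-1.09), a protease inhibitor, and PLAUR (-0.71), the urokinase receptor, fell, and were at -0.43, -0.52 and -0.43 after correction.

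Most genes of homologous recombination and mismatch repair rose. Of 29 tested, 21 rose, 3 fell and 5 did not pass the test, with 9 called higher, and the median was 0.79, the highest of the lists with at least 10 members. These genes are AT-rich (median GC 42.1%). After the GC trend was removed, 15 were higher, 0 were lower and 14 did not pass, and the median was 0.36. BRCA1 measured 11, 11.4 and 11.5 CPM in Antisense_NC and 33.1, 47.3 and 32.1 CPM in Antisense_hnRNPK, and BRCA2 4.61, 4.39 and 4.66 and 12, 18.6 and 12.2 CPM. The groups did not overlap, and the differences were 1.73 (SE 0.15, edgeR adjusted p = 4.48e-07) and 1.65 (SE 0.18, edgeR adjusted p = 3.62e-06), with 1.28 (edgeR adjusted p = 7.76e-05) and 0.95 (edgeR adjusted p = 0.00195) after correction. XRCC2, which acts in homologous recombination, differed by 1.71 (SE 0.29, edgeR adjusted p = 0.000177), and by 1.09 after correction. The damage kinases ATM and ATR were at 1.23 and 1.23, and at 0.58 and 0.51 after correction. FANCA, which has 55.6% GC, fell (-0.64), and was at -0.20 (edgeR adjusted p = 0.0534) after correction.

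The mitosis list depended on the GC correction. Of 40 mitosis and G2/M genes, 26 rose, 9 fell and 5 did not pass the test, at a median of 0.43. Once the GC trend was taken out, 9 were higher, 8 were lower and 23 did not pass, and the median was -0.08. HMMR, a spindle protein, rose (1.41, 0.73 after correction), and AURKB and CDC20, which act at the spindle checkpoint, fell (-0.80 and -0.74, -0.35 and -0.21 after correction). Of 47 DNA replication and S phase genes, 17 rose, 19 fell and 11 did not pass the test, at a median of -0.06. After correction, 8 were higher, 7 were lower and 32 did not pass, with 0 called higher and 0 lower and a median of -0.0012. PRIM1, the catalytic subunit of primase, rose by 1.24, and CDT1, the licensing factor, fell by 1.08, and they were at 0.77 and -0.36 after correction. The zinc finger genes named ZNF, most of them KRAB repressors, rose more often than they fell. Of 363 tested, 202 rose, 53 fell and 108 did not pass the test, with 78 called higher and 15 lower, at a median of 0.63. After GC correction, 118 were higher, 30 were lower and 215 did not pass, and the median was 0.30. On chromosome 19, where many lie in clusters, 98 of 152 rose and 16 fell, and elsewhere 104 of 211 rose and 37 fell. After correction the counts were 56 higher and 7 lower on chromosome 19 and 62 and 23 elsewhere. ZNF genes share sequence, and only uniquely mapped reads were counted. Many are low, such as ZNF75A, which went from 0.603, 0.886 and 0.665 to 2.77, 3.86 and 1.6 CPM (1.93 and 1.63 after correction), and ZNF417, from 0.258, 0.295 and 0.256 to 1.06, 1.72 and 0.468 CPM (2.00 and 1.69 after correction).

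The other members of the family of hnRNPK fell. PCBP1 measured 331, 328 and 351 CPM in Antisense_NC and 188, 169 and 209.9 CPM in Antisense_hnRNPK, and PCBP2 134, 144 and 145 and 104, 98.2 and 92.4 CPM. Neither overlapped between the groups, and the differences were -0.84 (SE 0.08, edgeR adjusted p = 1.14e-06) and -0.53 (SE 0.08, edgeR adjusted p = 4.52e-05). PCBP3 (-0.81) and PCBP4 (-0.74) fell too. In the fit without the GC trend, PCBP1 and PCBP2 were at -0.43 (edgeR adjusted p = 0.00188) and -0.76 (edgeR adjusted p = 2.55e-05), and the other two did not pass. Of 40 other hnRNP and SR splicing factors, 20 rose, 8 fell and 12 did not pass the test, at a median of 0.23. The list is AT-rich (median GC 40.9%), and with the GC trend removed the balance turned: 3 were higher, 21 were lower and 16 did not pass, at a median of -0.29. The direction of this list therefore depends on the GC correction. SRSF4, an SR protein, fell in both, from 159.6, 161 and 160.3 to 75.6, 49.9 and 96.4 CPM, at -1.13 (SE 0.18, edgeR adjusted p = 0.000324) as deposited and -1.68 (edgeR adjusted p = 9.31e-05) after correction. SRRM1 and SRRM2, coactivators of splicing with long serine-arginine stretches, fell by 0.92 and 1.37, and were at -1.44 and -0.97 after correction. SRSF3 rose (0.71), and was at 0.10 (edgeR adjusted p = 0.398) after correction.

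The proteasome had 40 genes tested, of which 25 rose, 12 fell and 3 did not pass the test, with 5 called higher, at a median of 0.45. After correction, 15 were higher, 4 were lower and 21 did not pass, and the median was near 0. Small nucleolar RNAs, guides of rRNA modification that sit in introns, had 26 tested, of which 1 rose, 10 fell and 15 did not pass the test, with 9 called lower, at a median of -0.57. After correction, 1 was higher, 12 were lower and 13 did not pass, with 1 called higher and 9 lower and a median of -0.70. SNORD68 measured 0.646, 0.802 and 0.614 CPM against 0.151, 0.0324 and 0.195 CPM, at -2.46 (SE 0.53, edgeR adjusted p = 0.000977), and -2.72 after correction. Library methods recover such short RNAs poorly, and as a class they took 0.00649% to 0.00695% of counts in Antisense_NC and 0.0048% to 0.00772% in Antisense_hnRNPK, which overlapped (exact permutation p = 0.7).

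**Figure D4:**
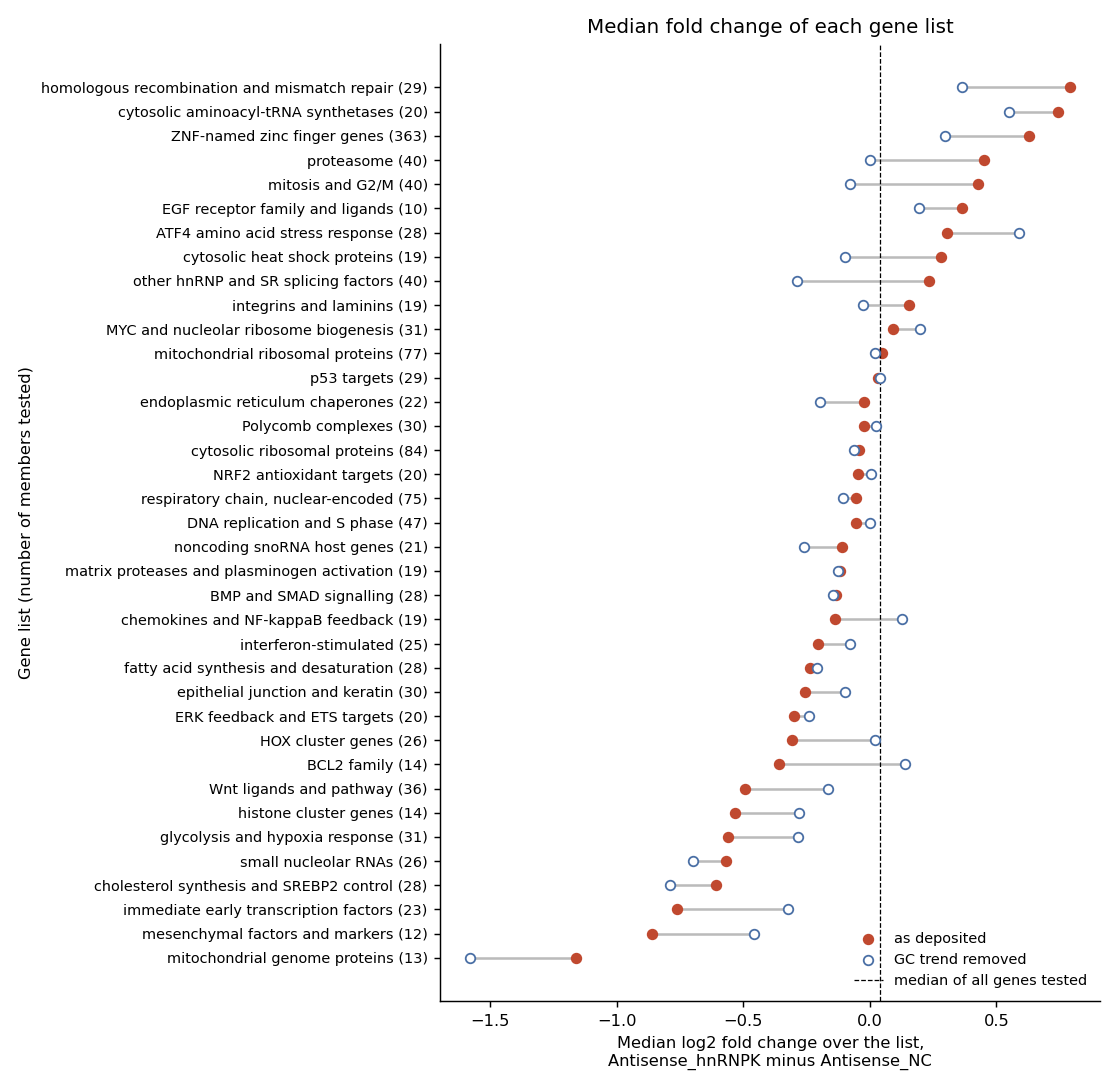
For each gene list with at least 10 members tested (y axis, number in brackets), the filled point is the median log2 fold change (x axis) as deposited and the open point the median with the GC trend removed. The mitochondrial mRNAs, the cholesterol list and the ATF4 list lie farther from 0 after the correction, while the proteasome and mitosis medians move to about 0 and the splicing factor median moves from 0.23 to -0.29.

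Most glycolysis and hypoxia genes fell. Of 31 tested, 5 rose, 22 fell and 4 did not pass the test, with 7 called lower, at a median of -0.56. With GC corrected for, 2 were higher, 16 were lower and 13 did not pass, at -0.28. ALDOC, an aldolase, measured 1239, 1254 and 1283 CPM in Antisense_NC and 441, 331 and 519 CPM in Antisense_hnRNPK, and ALDOA 11689, 11605 and 12239 and 4590, 3745 and 5526 CPM. Their differences were -1.56 and -1.37, and -1.12 and -0.84 after correction. GAPDH, often used as a reference gene, measured 31033, 32322 and 31599 CPM and 14740, 12507 and 19877 CPM. The groups did not overlap, its difference was -1.02 (SE 0.14, edgeR adjusted p = 1.8e-05), and with the GC trend removed it was -0.40 (edgeR adjusted p = 0.0528). LDHB, which favours lactate use, rose from 448, 484 and 457 to 934, 719 and 986 CPM, at 0.92 and 0.51 after correction.

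Wnt and BMP signalling were described because of their place in colorectal cancer. Of 36 Wnt genes, 5 rose, 20 fell and 11 did not pass the test, with 2 called higher and 8 lower, at a median of -0.50. After correction, 4 were higher, 12 were lower and 20 did not pass, with 1 called higher and 4 lower and a median of -0.17. WNT6, a ligand, was low, at 2.67, 1.9 and 1.69 CPM against 0.682, 0.421 and 0.0779 CPM (-2.39 and -1.56 after correction). The nuclear partners of beta-catenin TCF7L1 and TCF7L2 went from 35.8, 34.6 and 33.8 to 11.1, 9.36 and 14.2 CPM and from 125, 125 and 118 to 60.2, 47.3 and 70 CPM. They remained lower after correction, at -1.07 (edgeR adjusted p = 7.59e-05) and -1.20 (edgeR adjusted p = 8.02e-06). CTNNB1, beta-catenin, rose from 163, 177 and 178 to 280.5, 250.3 and 276 CPM (0.64), and was at 0.06 (edgeR adjusted p = 0.541) after correction. Among receptors, FZD6 (1.33) and FZD4 (1.13) rose and were at 0.68 and 0.95 after correction. Of 28 BMP and SMAD genes, 9 rose, 11 fell and 8 did not pass the test, at a median of -0.14. After correction, 2 were higher, 8 were lower and 18 did not pass, with 0 called higher and 0 lower and a median of -0.15. Of 14 BCL2 family genes, which set the threshold of apoptosis, 3 rose, 9 fell and 2 did not pass the test, at a median of -0.36. After correction, 3 were higher, 1 was lower and 10 did not pass, and the median was 0.14, so the direction of this list also depended on GC. BMF, a BH3-only protein, fell by 0.95 and was at -0.53 (edgeR adjusted p = 0.14) after correction.

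Of the 4 genes that the study picked on libraries of this series, BBC3 (the apoptosis inducer PUMA), SMAD6 (an inhibitor of BMP signalling) and BMP7 (a ligand) fell and SMURF2 (a ubiquitin ligase of SMADs) rose. As they were chosen on libraries of the same series, their directions are not independent evidence. The criteria that the study gives for its co-regulated genes use the CRLM1 and Ctrl groups. It also measured the 4 genes by immunoblot and qRT-PCR in CRLM1-overexpressing cells with hnRNPK knocked down, which is not examined here. BBC3 measured 188, 193 and 204 CPM in Antisense_NC and 151, 120.3 and 136 CPM in Antisense_hnRNPK, a difference of -0.53 (SE 0.09, edgeR adjusted p = 0.000105). SMURF2 measured 172, 184 and 165 and 256, 291 and 296 CPM, a difference of 0.69 (SE 0.08, edgeR adjusted p = 5.52e-06). SMAD6 and BMP7 were low and differed by -0.99 and -0.63. With the GC trend removed none of the 4 passed: BBC3 turned to 0.19 (edgeR adjusted p = 0.0829), SMURF2 was at 0.12 (edgeR adjusted p = 0.229), SMAD6 at -0.50 (edgeR adjusted p = 0.195) and BMP7 at -0.15 (edgeR adjusted p = 0.508).

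Further genes were named by size alone. RAB3A, a GTPase of secretory vesicles, went from 45.3, 47.2 and 50.9 to 14, 7.55 and 17.9 CPM, and PRSS8, the epithelial protease prostasin, from 218, 235 and 251 to 74.4, 53.3 and 82.5 CPM. PER1, of the circadian clock, went from 692, 689 and 704 to 232, 159 and 255 CPM. The channel HCN3 (-1.75) also fell, as did TMEM189-UBE2V1 (-1.73), a read-through gene whose reads overlap those of its parts. RAB3A, PRSS8 and PER1 differed by -1.88, -1.75 and -1.70. After correction these 5 genes were at -1.26, -1.14, -1.02, -1.19 and -1.76, in the order RAB3A, PRSS8, PER1, HCN3 and TMEM189-UBE2V1. SYNE1, a protein of the nuclear envelope, rose from 1.59, 2.15 and 2.05 to 7.05, 12.3 and 5.18 CPM, DHRS2, a mitochondrial reductase, from 2.28, 2.66 and 3.43 to 7.12, 15.5 and 6.27 CPM, and PTPDC1, a phosphatase, from 4.61, 3.67 and 4.35 to 12.8, 24.7 and 9.66 CPM. In all 3 replicate 2 was the highest, but the lowest treated library was still above the highest control. GOPC (1.83), of Golgi trafficking, LRRC49 (1.83) and ZC3H12C (1.87) rose too. SYNE1, DHRS2 and PTPDC1 were at 1.73, 1.97 and 1.66 after correction, and GOPC, LRRC49 and ZC3H12C at 1.20, 1.29 and 1.18. Of abundant genes, CLCN3, a chloride-proton exchanger, went from 61.1, 66.9 and 59.6 to 156, 184 and 154 CPM, OSBPL8, an oxysterol-binding protein, from 69.5, 77.1 and 66.3 to 163, 195 and 184 CPM and DCBLD2 from 78.4, 78 and 71.3 to 180.1, 309 and 138 CPM, and after correction they were at 0.80, 0.59 and 0.85. After the GC trend was removed, KCNG1 (1.89), C1orf116 (1.53), TRAF1 (1.51) and RP4-613B23.5 (1.45) were among the highest.

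Of 426 lincRNA genes tested, 100 rose and 49 fell, and of 924 genes annotated as antisense, 120 rose and 182 fell. After correction 60 lincRNA genes were higher and 40 lower, and of the antisense genes 126 were higher and 75 lower, so the balance of the antisense genes depended on the GC correction. Among the noncoding genes named by the rule, RP11-1100L3.8 fell from 8.49, 5.95 and 8.29 to 1.78, 1.55 and 1.36 CPM and RP11-388M20.2 from 5.38, 4.77 and 6.24 to 1.25, 1.39 and 1.75 CPM. CD81-AS1 (-1.71) and CTD-2382E5.6 (-1.79) fell, and AADACP1 (2.45), CKMT2-AS1 (2.12), RP11-547D13.1 (1.77), AC012363.4 (1.70) and AC083843.1 (1.69) rose. After correction RP11-1100L3.8 and RP11-388M20.2 were at -1.96 and -1.34. All are below 10 CPM on average, and as strand is unknown, reads from genes on the opposite strand cannot be told apart for those that overlap one. RP11-1100L3.8 lies within NR4A1 and RP11-388M20.2 within PRSS8, each on the opposite strand. Both of these coding genes fell, so the 2 noncoding falls may not be separate from theirs.

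The design also allows the question whether the construct acted differently in antisense cells and in cells with the empty vector. The interaction, (Antisense_hnRNPK minus Antisense_NC) minus (Ctrl_hnRNPK minus Ctrl_NC), was fitted with edgeR on 12 libraries and 15346 genes. No gene was called (0%), with 2179 at an unadjusted p under 0.05. With RLE size factors 0 were called as well. Ctrl_hnRNPK replicate 3 stood apart from its group and lay nearer to the Ctrl_NC libraries in most of the genes below. Its HNRNPK level was 491 CPM, against 617 and 644 CPM in replicates 1 and 2. The study left this library out for its poor correlation with the other replicates. Without it 158 genes were called, without Ctrl_hnRNPK replicate 2 63 and without Antisense_hnRNPK replicate 3 33. With the GC trend removed and all libraries kept, 71 were called. The smallest adjusted p was that of ASNS, at 1.70 (SE 0.25, edgeR adjusted p = 0.0652). ASNS measured 41.1, 41.5 and 39.9 CPM in Ctrl_NC and 39.4, 44.1 and 33.1 CPM in Ctrl_hnRNPK, where the groups overlapped, and its Antisense_NC level was already above both. SLC7A11 measured 7.05, 7.96 and 6.11 CPM in Ctrl_NC and 10.9, 9.13 and 6.6 CPM in Ctrl_hnRNPK. Its Antisense_NC level, 46.3, 49.7 and 42 CPM, was also above both. The interaction was 1.84 (SE 0.29, edgeR adjusted p = 0.0654). Without Ctrl_hnRNPK replicate 3 the interactions were 1.57 (edgeR adjusted p = 0.00141) and 1.65 (edgeR adjusted p = 0.0024), and with the GC trend removed 1.59 (edgeR adjusted p = 0.00441) and 1.65 (edgeR adjusted p = 0.0052).

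Other leading genes moved in the Ctrl background too. FASN measured 1401, 1389 and 1344 CPM in Ctrl_NC and 689.7, 479 and 1599 CPM in Ctrl_hnRNPK, and the interaction was -1.69 (SE 0.47, edgeR adjusted p = 0.173). MT-ND5 measured 5380, 5038 and 5577 and 3208, 2612 and 4806 CPM there, with an interaction of -1.04 (SE 0.26, edgeR adjusted p = 0.134). NR4A1 measured 175, 183 and 175 and 120, 95.2 and 202 CPM, with one of -1.49 (SE 0.33, edgeR adjusted p = 0.103). In all 3, replicates 1 and 2 of Ctrl_hnRNPK were below the controls, while replicate 3 was nearer to them or above them. CXCL8 was higher in each Ctrl_hnRNPK library than in any Ctrl_NC library, 55.1, 49.9 and 50.5 CPM against 135, 127 and 75.1 CPM, and the interaction was 0.65 (SE 0.25, edgeR adjusted p = 0.268). LARS, at 61.2, 58.5 and 62 CPM against 133, 163 and 59.2 CPM, had an interaction of only 0.37 (SE 0.35, edgeR adjusted p = 0.669). HNRNPK itself, at 463, 471 and 479.7 CPM against 617, 644 and 491 CPM, had one of 0.03 (SE 0.19, edgeR adjusted p = 0.956). An adjusted p above the threshold does not show that the effects were equal.

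**Figure D5:**
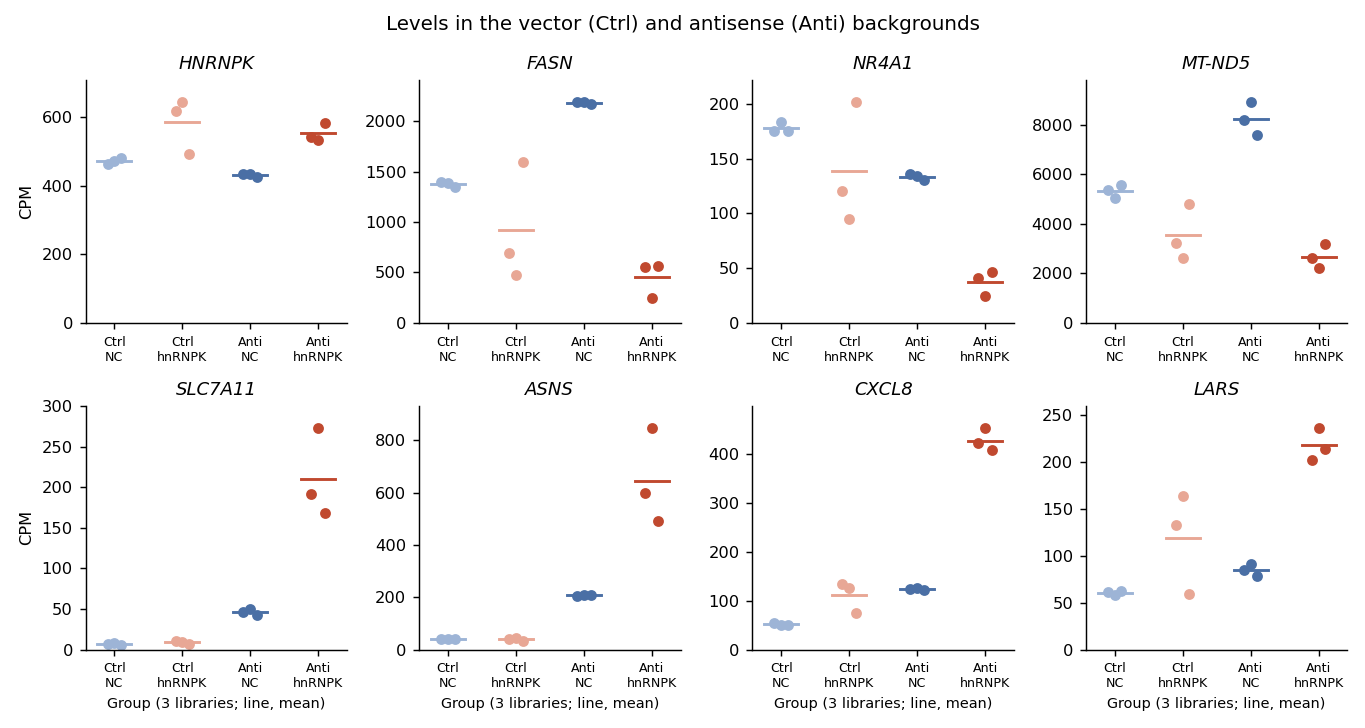
CPM (y axis, from 0) of 8 genes in the 4 groups (x axis), with a point for each of 3 libraries and a line at the mean. SLC7A11 and ASNS are low in both Ctrl groups, higher in Antisense_NC and highest with the construct in antisense cells. In Ctrl_hnRNPK, replicate 3 lies near Ctrl_NC in HNRNPK, MT-ND5 and LARS and above it in FASN.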

How the data were processed

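RNA-seq libraries of HCT116 cells, 3 biological replicates in each of 6 groups, were used, of which the 6 antisense libraries form the comparison. The authors trimmed reads with FASTX-Toolkit, aligned them to GRCh38 with TopHat2 and deposited counts of uniquely mapped reads per gene, with no normalization. They also deposited FPKM values, rounded to hundredths, and listed edgeR among their tools. The strand setting, the version of TopHat2 and the read depth before counting are not given in the sources used here. The labels and the methods name different vectors for the construct.

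Here the deposited counts were filtered with filterByExpr, scaled by TMM and tested with edgeR 4.0.16 (R 4.3.3), glmQLFit with the robust option and a two-sided glmQLFTest, with no block for the replicate number. Standard errors were the log2 fold change divided by the root of F. The deposited FPKM values were tested as log2(FPKM + pseudocount) with limma 3.58.1, at pseudocounts of 0.1 and 1, which understates changes of low genes. GC content was computed over the exons of a later Gencode release on GRCh38. The GC trend was removed with a lowess curve per library (span 0.3), as an offset. The 164 tested genes without a GC value were given no offset. DESeq2 1.42.0, RLE size factors, no count filter, a fit of all 18 libraries, a replicate block and leaving out each library were tried as alternatives.

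Genes were named from lists and by size, among called genes without overlap between the groups: the 12 highest and 12 lowest protein-coding genes of at least 5 CPM, 8 and 8 of at least 100 CPM, 5 and 5 other genes of at least 2 CPM, and 10 and 10 protein-coding genes called with and without the GC trend. The members and lists were chosen with earlier results of these data known, and the genes named from the lists after their values were seen. On counts simulated for Antisense_hnRNPK against Antisense_NC with no trend (14038 genes, 96 changed by each size), 90.6% of genes changed by 1 and 96.9% of those changed by 1.5 on the log2 scale passed. With a GC trend imposed (14058 genes), 50.4% of unchanged genes passed without the GC correction and 0.108% with it. With the correction, 87.4% of genes changed by 1 and 91.7% of those changed by 1.5 passed. The imposed trend was a straight line, the same in each treated library, and few genes were changed, drawn without regard to GC. In the data the trend differed between libraries and most genes passed, so these rates may not hold there. Some genes that these rules would name are not reported here. P-values measure the spread between 3 cultures, and depth covers counting error only.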

Additional observations from a re-analysis of the deposited data

How the results depend on the processing

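Against 1941 called genes (1056 higher, 885 lower), RLE size factors gave 1931, DESeq2 1851, no count filter 2211 and the fit of all 18 libraries 1869. The share of calls that were higher, 54.4%, was 49.6% with RLE and 49.2% with DESeq2. The FPKM values gave 1986 calls (1728 higher, 258 lower) at a pseudocount of 0.1 and 635 (495, 140) at 1, where all genes had medians of 0.25 and 0.14. The calls fell to 670 (456, 214) with the GC trend removed, 657 (456, 201) with length removed too, and 671 (452, 219) with the replicate block and the GC trend removed. Leaving out 1 library gave 1590 to 2293 calls, 701 to 1145 higher and 843 to 1168 lower, and without Antisense_hnRNPK replicate 2 the higher calls were 701. Leaving out a library in the fit without the GC trend was chosen after seeing the data. It gave 609 calls (411 higher, 198 lower), 615 (405, 210) and 594 (401, 193) without Antisense_NC replicates 1, 2 and 3, and 663 (435, 228), 436 (267, 169) and 1028 (702, 326) without Antisense_hnRNPK replicates 1, 2 and 3. The replicate block gave 1941 calls (1049 higher, 892 lower). Deviations of same-numbered samples correlated at -0.02, -0.04 and -0.09, so no pairing by number was seen. Whether same-numbered samples were handled together is not given in the sources used here.

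HNRNPK turned to -0.19 with the GC trend removed, -0.18 with GC and length removed and -0.19 with the block and GC. BBC3 turned to 0.19, 0.19 and 0.19 in these fits, MDM2 to -0.0846, -0.0808 and -0.0863, and MT-RNR2 to -0.25, -0.31 and -0.27, and leaving out 1 library gave it -0.0468 (without Antisense_hnRNPK replicate 3) to 0.36 (without replicate 2). HMGCS1 ran from -0.43 without Antisense_hnRNPK replicate 3 to 0.0851 without replicate 2. On FPKM, RP4-710M16.2 was 0.0019 and 0.0019 and MT-ND3 0.13 and 0.13, at the 2 pseudocounts. Of 40 gene lists, the median changed sign in 9 with the GC trend removed. On FPKM it changed sign in 11 at a pseudocount of 0.1 and in 11 at 1. Without Antisense_hnRNPK replicates 2 and 3 it did so in 2 lists and 1 list, and with RLE size factors or DESeq2 in 0. The correlation with GC was -0.80 over genes of at least 10 CPM. The interaction, with 0 calls, gave 71 with the GC trend removed, 2 with a replicate block, 158 without Ctrl_hnRNPK replicate 3 and 163 with both. Omissions added after seeing the data gave 33 without Antisense_hnRNPK replicate 3, 63 without Ctrl_hnRNPK replicate 2 and 0 without any other library. The causes were not tested.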

Other observations

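In several further gene groups single members moved far. As deposited and after GC correction, the medians were -0.05 and 0.0038 for NRF2 genes and 0.36 and 0.19 for the EGF receptor family. They were 0.16 and -0.03 for integrins and laminins and 0.28 and -0.10 for heat shock proteins. Among antioxidant genes of NRF2, 20 were tested, of which 9 rose, 8 fell and 3 did not pass the test, and after GC correction 8 were higher, 7 were lower and 5 did not pass. TXNRD1, thioredoxin reductase, went from 639, 669.8 and 648 to 1438, 1350 and 1410 CPM (1.096 and 0.92 after GC correction), GCLM (1.00 and 0.34) and GCLC (0.84 and 0.51), which make glutathione, rose, and FTL, ferritin light chain, fell (-0.97 and -0.50). In the EGF receptor family, 7 rose, 1 fell and 2 did not pass the test among 10. The ligands BTC (1.36) and EREG (0.91) rose and the receptor ERBB2 (-0.81) fell, and with the GC trend removed 1 of the 10 was higher and 1 lower. Among 19 integrins and laminins, 5 rose, 7 fell and 7 did not pass the test, and after GC correction 4 were higher, 4 were lower and 11 did not pass. ITGA2, a collagen receptor subunit, rose from 21, 20.7 and 20.6 to 49.2, 90.5 and 44.3 CPM (1.57 and 0.97). Among 19 heat shock proteins, 9 rose, 8 fell and 2 did not pass the test, and after GC correction 2 were higher, 6 were lower and 11 did not pass. HSPB1 fell from 442, 442 and 464 to 175, 122 and 192 CPM (-1.47 and -0.76) and HSPD1, the mitochondrial chaperonin, rose (0.79 and 0.30).

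Of 29 p53 targets, 8 rose, 11 fell and 10 did not pass the test, at a median of 0.03, and after GC correction 9 were higher, 7 were lower and 13 did not pass. CDKN1A, the cell cycle inhibitor p21, went from 1061, 1118 and 1111 to 708, 665 and 774 CPM (-0.62) and MDM2, which degrades p53, from 100.3, 110.3 and 95.7 to 138, 158 and 153 CPM (0.54), and after GC correction they were at -0.09 (edgeR adjusted p = 0.438) and -0.08 (edgeR adjusted p = 0.413). Endoplasmic reticulum chaperones (22 tested) had 6 higher and 8 lower, at a median of -0.02, and 3 higher and 10 lower at -0.20 with the GC trend removed. Polycomb complexes (30 tested) had 10 higher and 12 lower, at a median of -0.02, and 5 higher and 6 lower at 0.02 with the GC trend removed. Nucleolar ribosome biogenesis (31 tested) had 13 higher and 12 lower, at a median of 0.09, and 14 higher and 3 lower at 0.20 with the GC trend removed. Mitochondrial ribosomal proteins (77 tested) had 33 higher and 24 lower, at a median of 0.05, and 22 higher and 21 lower at 0.02 with the GC trend removed. Cytosolic ribosomal proteins (84 tested) had 22 higher and 31 lower, at a median of -0.04, and 11 higher and 24 lower at -0.06 with the GC trend removed. Noncoding snoRNA host genes (21 tested) had 5 higher and 6 lower, at a median of -0.11, and 3 higher and 7 lower at -0.26 with the GC trend removed. HOX genes (26 tested) had 1 higher and 7 lower, at a median of -0.31, and 5 higher and 2 lower at 0.02 with the GC trend removed. Histone genes (14 tested) had 2 higher and 3 lower, at a median of -0.53, and 2 higher and 2 lower at -0.28 with the GC trend removed. Beside each of these counts, 33.4% of all genes rose and 30.5% fell, and 19.1% and 19.5% with the GC trend removed.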
